A study of Mus musculus with 36 samples.

Results

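The replication-dependent histone genes encode the histones that package newly made DNA. They were taken as the protein-coding genes of the GENCODE M21 annotation whose symbols start with Hist1h, Hist2h, Hist3h or Hist4h and that had at least 1 count in any library. Of 67 listed genes of this kind, 61 met the rule, out of 36853 genes with any count in the series. The other 6 (*Hist1h2ap*, *Hist2h2aa1*, *Hist2h2aa2*, *Hist2h2bb*, *Hist2h3b* and *Hist2h3c1*) were listed at 0 in every library. Among the 61 genes there were 6 for the linker histone H1, 15 for H2A, 17 for H2B, 10 for H3 and 13 for H4. On GRCm38, 53 of them lay in the Hist1 cluster (chr13:21715763-23934851), 5 in the Hist2 cluster (chr3:96219865-96270132), 2 in the Hist3 pair (chr11:58948920-58956830) and 1, *Hist4h4*, at chr6:136801553-136804415.

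RNA was sequenced from 36 libraries of mouse brown pre-adipocytes, the precursors of heat-producing fat cells. All cells came from 2 monoclonal *Rxra*−/− lines, clone 48 and clone 66, made with Cas9, and a retrovirus returned RXRα, either in its wild-type form (*Rxra*WT) or carrying alanine instead of serine at residue 22 (*Rxra*SA). RNA was taken at confluence (day 0), after induction with dexamethasone, isobutylmethylxanthine and indomethacin (day 2) and after further culture (day 6), with insulin and triiodothyronine present at every stage. There were 3 libraries for each clone, genotype and day, and library pool 1 held every library of clone 48 and pool 2 every library of clone 66, so that clone and pool cannot be told apart. The deposited design text calls the 3 replicates technical and the study's methods call them independent, so that p-values measure the spread between these libraries, which may be technical.

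Total counts ranged from 11351078 to 24349263 per library (median 18338726). *Rxra* itself was counted at 105 to 711 CPM (counts per 1000000 of the TMM-scaled library size) in *Rxra*WT libraries and at 92.5 to 621 CPM in *Rxra*SA libraries, and gene counts do not tell the 2 forms apart. Of the adipocyte markers, 5 of 5 rose between days 0 and 6, *Plin1* and *Adipoq* among them, and of the 5 brown adipocyte markers 2 were tested, *Cidea* and *Ppargc1a*, and both rose (4.55 and 0.63 on the log2 scale), with *Cidea* at no more than 27 counts in a library. With each clone tested alone, 2 of these 2 rose in clone 48 and 1 in clone 66, and at day 6 both were lower in clone 66 than in clone 48. *Ucp1*, *Dio2* and *Prdm16* were too low to be tested. Of 3 macrophage markers only *Cd68* was tested and rose by 0.27, and of 2 endothelial markers only *Pecam1* was tested and rose by 0.58. *Adgre1*, *Ptprc*, *Cdh5* and the muscle markers *Myod1* and *Myog* were below the filter. The part of such cells in the histone levels was not tested.

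Synthesis of these histones is tied to the S phase of the cell cycle. Their genes mostly lack introns, and their mRNAs usually end in a conserved stem-loop instead of a poly(A) tail. Stem-loop binding protein (SLBP) binds this stem-loop and serves in 3′ end processing, translation and decay of the mRNA. The libraries were made from total RNA, so that transcripts without a poly(A) tail could be counted. Dividing precursors stop cycling as they become adipocytes, so that levels of the family can depend on proliferation as well as on chromatin supply. Which of these the levels follow here was not tested. In bulk samples, fewer cells that make a transcript and less transcript per cell cannot be told apart.

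The stem-loop was searched in the first 100 bases after the stop codon of the GENCODE transcripts, as GGNNNNTTNN followed by the reverse complement of its first 6 bases, on the transcript strand. It was found in 40 of the 61 genes and in 0.0382% of 20931 other protein-coding genes with enough sequence past the stop codon. Of the 21 genes without a match, 14 have gene models with under 10 bases after the stop codon, and the other 7 are *Hist1h1a*, *Hist1h2bc*, *Hist1h2bq*, *Hist1h2br*, *Hist1h3g*, *Hist1h4a* and *Hist2h2be*. Among all listed genes 6 different sequences were present. They are shown here with 5 bases on each side, written as DNA and with the 2 arms of the stem in capitals, because they show what the members share at the end of their mRNAs and how the H4 genes differ from the rest.
Hist1h3b: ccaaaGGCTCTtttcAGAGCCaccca
Hist1h2bb: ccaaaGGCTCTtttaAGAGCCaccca
Hist2h2ac: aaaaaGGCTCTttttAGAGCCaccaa
Hist1h4d: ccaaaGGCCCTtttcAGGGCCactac
Hist1h4i: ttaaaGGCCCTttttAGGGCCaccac
Hist1h4b: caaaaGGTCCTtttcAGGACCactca
The form of *Hist1h3b* was held by 26 listed genes and that of *Hist1h2bb* by 6, all of them H1, H2A, H2B or H3 genes. The arm GGCCCT was found in 7 genes with the loop of *Hist1h4d* and in 2 with that of *Hist1h4i*, and the arm GGTCCT in 2 genes. Each of these was an H4 gene, and no H4 gene held the arm GGCTCT. The sequence lay 29 bases after the stop codon in *Hist1h3b*, 21 in *Hist2h2ac* and 36 in *Hist1h4d*. The model of *Hist1h3b* ran on for 51 bases beyond it, that of *Hist1h1c* for 840 and that of *Hist4h4* for 2445.

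Promoters were matched for 55 of the 61 genes in RefSeq (GRCm38.p6), as 300 bases that reach from 250 before to 50 after the start. The motifs CCAAT (known from many promoters), TATAAA (the TATA box), ATTTGCAT (the octamer known from H2B promoters) and AAACACA (known from H1 promoters) were searched on both strands, and none of them contains another. CCAAT was present in every matched promoter of an H1, H2A, H2B or H3 gene but in 3 of 12 H4 promoters, against 37.4% of all 32851 promoters. TATAAA was in 60% of the members' promoters against 13.6% of all. ATTTGCAT was in 7 of 15 H2A and 5 of 15 H2B promoters and in no other member's, against 1.74% of all, and AAACACA was in 4 of 5 H1, 2 H2A and 2 H2B promoters against 7.18% of all. A match is a sequence description and not evidence of binding. The 160 bases before the start are given for 4 genes of 3 classes whose levels are plotted per library further on, with matches on either strand in capitals.
Hist1h1a (chr13:23763508-23763667, + strand): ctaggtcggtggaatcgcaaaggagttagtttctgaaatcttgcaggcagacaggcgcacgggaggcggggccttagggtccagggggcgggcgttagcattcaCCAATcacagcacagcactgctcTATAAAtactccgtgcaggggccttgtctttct
Hist1h1c (chr13:23738647-23738806, + strand): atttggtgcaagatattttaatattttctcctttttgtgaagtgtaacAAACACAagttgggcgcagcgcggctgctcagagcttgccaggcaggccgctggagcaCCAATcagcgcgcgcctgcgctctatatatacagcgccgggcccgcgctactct
Hist1h3b (chr13:23752185-23752344, + strand): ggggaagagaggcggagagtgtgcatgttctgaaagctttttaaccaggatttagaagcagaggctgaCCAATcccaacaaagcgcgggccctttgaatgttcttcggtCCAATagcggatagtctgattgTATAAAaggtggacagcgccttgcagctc
Hist2h2ac (chr3:96220881-96221040, − strand): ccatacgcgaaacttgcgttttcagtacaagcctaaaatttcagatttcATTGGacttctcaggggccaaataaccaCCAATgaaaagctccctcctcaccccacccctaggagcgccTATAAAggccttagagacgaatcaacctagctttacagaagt
In these 4 promoters the CCAAT match nearest to the start began 56 bases before it in *Hist1h1a*, 54 in *Hist1h1c*, 51 in *Hist1h3b* and 83 in *Hist2h2ac*. The window of *Hist2h2ac* lies in the 238 bases between this gene and *Hist2h2be*, which are transcribed away from each other.

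The first question was how much of the RNA these genes account for. Summed over the 61 genes, the level ranged from 4311 to 8971 CPM at day 0 (median 5611, n = 12 libraries), from 3139 to 8502 CPM at day 2 (median 4765) and from 2215 to 5982 CPM at day 6 (median 4051). As a share of all counts the medians were 0.613%, 0.446% and 0.397%. The days overlapped, and the highest library of each day was of clone 48. H4 genes held a median of 32.6% of the family's counts at day 0 and H1 genes 31.7%, followed by H2B with 18.3%, H3 with 12.6% and H2A with 4.21%.

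**Figure D1:**
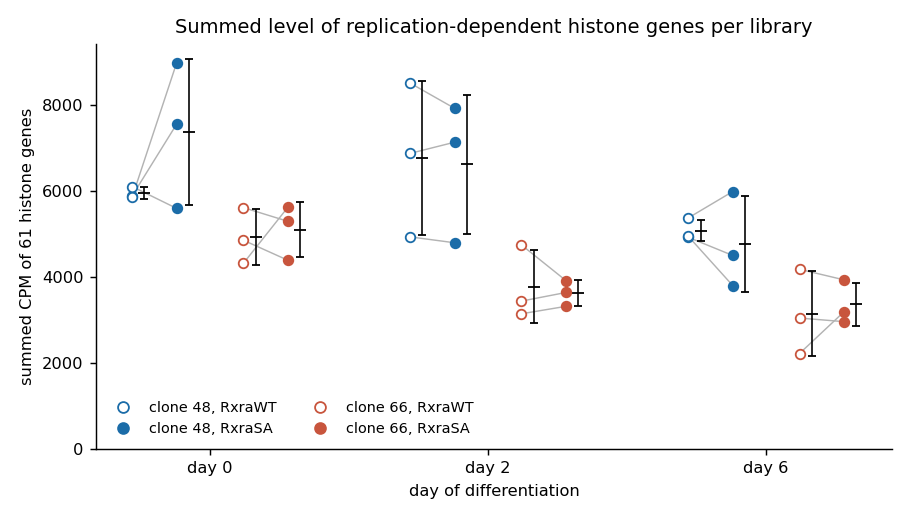
Summed CPM of the 61 replication-dependent histone genes (vertical axis) in each of 36 libraries by day, clone and genotype. Points are libraries, grey lines join same-numbered libraries of a clone and day, and black bars give the mean ± SD of 3 libraries. At day 2 the 6 libraries of clone 48 lie between 4790 and 8502 CPM and those of clone 66 between 3139 and 4740 CPM.

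The low share of H2A went together with a feature of the counting. Of the 15 H2A genes, 14 overlap an exon of a short gene annotated as a miRNA, 129 to 144 bases long, whereas 0 of the genes of the other classes do. Read pairs that touch 2 genes were left out of the counts, and so were read pairs that map to several places. Of the 61 genes, 28 share more than 50% of their 50-base windows exactly with another gene's transcripts, from 0% in *Hist1h1a*, *Hist1h1b*, *Hist1h1t* and *Hist2h2be* to 97.3% in *Hist1h2bq*. The part of overlap and of shared sequence in the levels was not tested. Levels of genes with near-identical copies, and comparisons of levels between genes, are therefore uncertain.

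Per kilobase of exon length, a scale that also depends on the annotated length of each gene, *Hist1h4h* (mean 550 CPM per kb over 36 libraries) and *Hist1h4f* (459) were the highest H4 genes. In the H1 class *Hist1h1c* (342) and *Hist1h1a* (285) led, both of them somatic linker histones. *Hist1h1d* has an annotated exon length of 7425 bases against 741 for *Hist1h1a*, so that its place in this order depends on the gene model. *Hist1h2bb* (245) and *Hist1h2bn* (222) led the H2B genes, *Hist1h3i* (159) and *Hist1h3c* (151) the H3 genes, and *Hist1h2ak* (97.5) and *Hist2h2ac* (78.3) the H2A genes. At the other end, *Hist1h2aa*, *Hist1h2ao*, *Hist1h2bq*, *Hist1h2br*, *Hist1h4m* and *Hist3h2ba* had at most 6 counts in any library. These 6 did not pass the filter on low counts, which left 55 genes for tests.

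The change over differentiation was a fall. Between days 0 and 6, 50 of the 55 tested genes fell and 2 rose (edgeR's quasi-likelihood test with both genotypes averaged, Benjamini-Hochberg adjusted p under 0.05 over 16723 genes), where 35.4% of all tested genes fell and 32.9% rose. The median log2 fold change of the 55 genes was −0.61, and that of all tested genes was −0.03. All 13 tested H2A and all 10 H3 genes fell, as did 13 of 14 H2B, 10 of 12 H4 and 4 of 6 H1 genes. The class medians ran from −0.77 (H2A) and −0.72 (H2B) over −0.67 (H3) and −0.52 (H4) to −0.43 (H1). The 3 genes that passed the test in neither direction were *Hist1h1c* (−0.21), *Hist1h4f* (−0.22) and *Hist2h4* (0.15).

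With both clones together, the family's median at day 2 lay between those of days 0 and 6, whereas in clone 48 alone the median log2 change by day 2 was −0.02 and that of its H3 genes 0.15. Against day 0, 25 genes fell and 3 rose, where 37.5% of all tested genes fell and 35.8% rose, and the median was −0.27. Of these 25, 9 were H2A and 9 H2B genes, 3 H3, 3 H4 and 1 H1. Without replicate 3 of clone 66, 16 genes fell and 6 rose, and when counts were scaled by library size alone 39 fell, with the median of all tested genes moved to −0.27. From day 2 to day 6, 34 genes fell and 2 rose, where 30.1% of all tested genes fell and 31.9% rose, with a median of −0.39. All but 1 of the 10 H3 genes fell in this interval, and without replicate 2 of clone 48 the number of falling genes was 18. The shares of all tested genes are those of the main fit, and the shares under the altered settings are not given. The 3 pairs of days share libraries and are not independent of each other. Both genotypes of a same-numbered pair entered as separate libraries although they deviated together, so that standard errors and p-values between days can be too small.

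**Figure D2:**
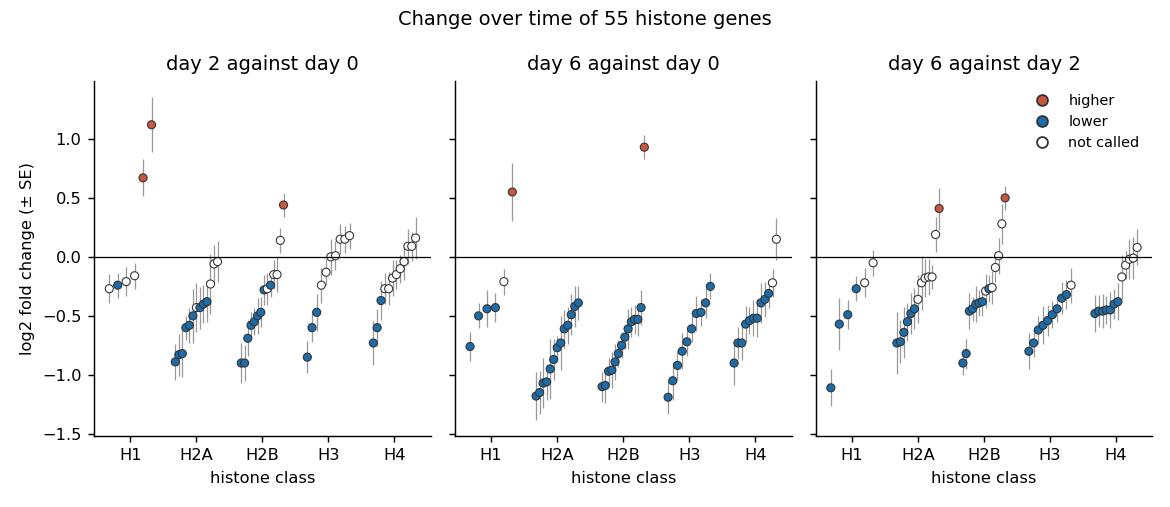
Log2 fold change (vertical axis, ± SE) of the 55 tested genes between pairs of days, by histone class and ordered within a class by its value. Filled points passed the test (red higher, blue lower). Between days 0 and 6, 50 points are blue, 2 are red and 3 are open.

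*Hist1h3b*, which encodes a canonical H3, fell most between days 0 and 6. It ranged from 77.2 to 167 CPM at day 0 (median 106), from 28.6 to 119 CPM at day 2 (median 59.1) and from 23.3 to 81.6 CPM at day 6 (median 46.4). The ranges of days 0 and 6 overlapped between 77.2 and 81.6 CPM over all libraries, and within each clone they did not overlap. Its log2 fold change from day 0 to day 6 was −1.19 (SE 0.139, adjusted p = 2.40e-09 by edgeR's quasi-likelihood test), 2.28-fold lower. *Hist1h2an* (−1.18, SE 0.2) and *Hist1h2ag* (−1.15, SE 0.182), both canonical H2A genes, followed. They are counted at a low level, with 25 to 259 and 38 to 344 counts per library, and 85.8% and 78.9% of their windows are shared with other genes. Both lay lower at day 6, with medians of 4.31 and 4.8 CPM against 8.55 and 10.4 CPM at day 0.

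The largest falls by day 2 were those of the H2B genes *Hist1h2bm* (−0.90, SE 0.155) and *Hist1h2bb* (−0.90, SE 0.168) and of the H2A gene *Hist1h2ab* (−0.89). *Hist1h2bm* was counted at 35.3 to 77.5 CPM at day 0 (median 49.1), at 14.2 to 44.6 at day 2 (median 24.4) and at 12.9 to 45.4 at day 6 (median 29.9). The log2 fold change from day 2 to day 6 was 0.01 and did not pass the test. *Hist1h2bb* had medians of 163, 72.4 and 115 CPM on the 3 days.

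For other genes the larger fall with both clones together came in the later interval. *Hist1h2bh*, an H2B gene, lay at 57 to 120 CPM at day 0 (median 83.1) and at 59.6 to 145 CPM at day 2 (median 91.5), and then at 28.8 to 77.4 CPM at day 6 (median 51). Its log2 fold change was 0.14 up to day 2 (adjusted p = 0.213, edgeR) and −0.90 from day 2 to day 6 (SE 0.104, adjusted p = 3.35e-09, edgeR). By clone, the change up to day 2 was 0.38 in clone 48, a rise that passed the test, and −0.08 in clone 66, which did not pass. *Hist1h2bj*, another H2B gene, fell in both intervals, by 0.82 on the log2 scale in the later one. Its change by day 2 was 0.01 in clone 48, which did not pass the test, and −0.55 in clone 66, which did. *Hist1h4d*, an H4 gene with a median of 469 CPM at day 0, passed through 381 CPM at day 2 to 312 CPM at day 6. In clone 48 its log2 change was 0.03 by day 2 and −0.71 from day 2 to day 6, and only the later one passed the test. In clone 66 the values were −0.59 and −0.18, and only the earlier one passed.

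The members that rose were few. *Hist2h2be*, an H2B gene known from non-dividing olfactory neurons, was counted at 6.19 to 11.7 CPM at day 0 (median 8.97), at 9.59 to 15.1 CPM at day 2 (median 11) and at 11.2 to 20.4 CPM at day 6 (median 17.4). Within each clone the libraries of day 6 lay above all those of day 0. The log2 fold change was 0.44 at day 2 (SE 0.1) and 0.93 at day 6 (SE 0.1, adjusted p = 3.79e-10, edgeR), both against day 0, and 0.50 from day 2 to day 6. None of its 50-base windows is shared with another gene. With scaling by library size alone its change by day 2 was 0.18 and did not pass the test.

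*Hist1h1a*, a linker histone of dividing cells, rose and then fell with both clones together, and its rise passed the test in clone 48 only. It lay at 128 to 233 CPM at day 0 (median 180), at 181 to 483 CPM at day 2 (median 283) and at 67.3 to 259 CPM at day 6 (median 140). The log2 fold change was 0.67 by day 2 (SE 0.157, adjusted p = 2.93e-04, edgeR), an average of 1.20 in clone 48 and 0.22 in clone 66. From day 2 to day 6 *Hist1h1a* fell by 1.11 (SE 0.157), the largest fall of a member in that interval. *Hist1h1t*, the testis-specific H1, had the highest fold change by day 2 (1.12, SE 0.234) at a level near the detection limit, with 4 to 37 counts per library and medians of 0.369, 0.753 and 0.588 CPM. Its change by day 6 (0.55) did not pass the test under scaling by library size alone or without any 1 of the replicates of clone 48, and 1 member then rose. *Hist2h2ab*, an H2A gene overlapped by the antisense gene *Gm15444*, fell by day 2 (−0.83) and was 0.41 higher at day 6 than at day 2, a rise that did not pass the test without replicate 1 of clone 48, without any 1 replicate of clone 66 or without the *Rxra*SA day 0 library of clone 48 replicate 1.

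**Figure D3:**
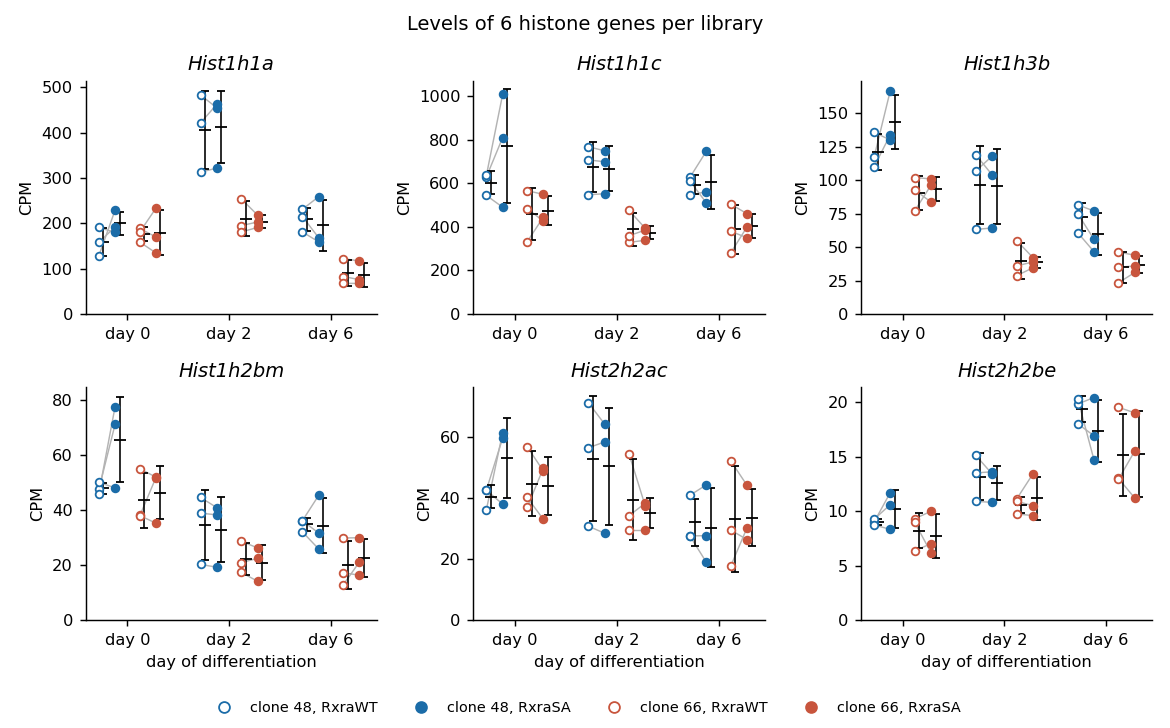
CPM (vertical axes, each from 0) of *Hist1h1a*, *Hist1h1c*, *Hist1h3b*, *Hist1h2bm*, *Hist2h2ac* and *Hist2h2be* in each library by day, clone and genotype, drawn as in the plot of summed levels. *Hist2h2be* rises from a median of 8.97 to 17.4 CPM, *Hist1h3b* falls from 106 to 46.4 CPM, and *Hist1h1a* peaks at day 2 in clone 48.

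Many H2A and H2B genes lie head to head. Among the members 11 such pairs had starts 175 to 305 bases apart, and in 9 of them both genes were tested. In 8 of these 9 pairs both genes fell between days 0 and 6, with log2 fold changes 0.05 to 0.63 apart, in a family where 50 of 55 tested genes fell. The other pair was *Hist2h2ac* and *Hist2h2be*, with −0.49 (SE 0.174) and 0.93, which are 1.42 apart. *Hist2h2ac* went from a median of 42.5 CPM at day 0 and 37.9 CPM at day 2 to 28.6 CPM at day 6. The difference between the 2 genes of a pair was not tested.

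Genes were also grouped by the annotated 3′ end. Of 17 tested genes whose model ends within 100 bases after the stem-loop, 16 fell between days 0 and 6 (median −0.89). Of 20 with more than 100 bases beyond it, 17 fell (median −0.55), and of 18 with no stem-loop in the model, 17 fell (median −0.55). In the whole family 50 of 55 tested genes fell, and of all tested genes 35.4% fell. The counts of the 3 groups lie near that of the family, and the counts and medians are descriptions with no test between them.

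Lists of genes around the histones were read against the 35.4% of all tested genes that fell and the 32.9% that rose between days 0 and 6. Of 23 S phase and proliferation genes, 20 fell and 3 rose between days 0 and 6 (median −0.59). *Mcm5*, a subunit of the replicative helicase, changed by −1.01 (SE 0.0509), *Tyms*, which makes thymidylate, by −0.87, and the proliferation marker *Mki67* by −0.87, while the cyclin gene *Ccne1* rose by 0.97. By day 2 the same list had 8 genes higher and 8 lower, shares near the 35.8% and 37.5% of all tested genes, and *Mki67* was at −1.38. Among 14 genes of histone transcription and mRNA processing, 5 fell and 6 rose by day 6, shares near those of all genes. *Slbp* fell by 0.58 (SE 0.11) and *Npat*, the coactivator of histone gene transcription, by 0.66 (SE 0.0929), whereas *Lsm1*, which serves in mRNA decay, rose by 0.43. With scaling by library size alone 1 gene of this list rose. Of 14 histone chaperones, 9 fell and 2 rose, with *Chaf1b* at −0.59, *Nasp* at −0.53 and *Asf1b* at 1.35.

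Replacement histones, which can also be made outside S phase, were tested in 11 cases. Of these, 3 rose and 1 fell between days 0 and 6 (median 0.04), where 32.9% of all tested genes rose and 35.4% fell. *H2afy2*, a macroH2A gene, rose by 1.90 (SE 0.274), *H2afj* by 0.91 (SE 0.109) and *H1f0*, the linker histone of differentiated cells, by 0.44 (SE 0.0959). *Cenpa*, the centromeric H3, fell by 0.47. *H3f3a* (−0.02) and *H3f3b* (0.04), which encode H3.3, did not pass the test. With scaling by library size alone 3 of the 11 fell, and without replicate 1 of clone 66 2 fell. By day 2, 4 of the 11 had risen and 4 had fallen, shares near the 35.8% and 37.5% of all tested genes. The difference between the lists was not tested.

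The clones were then compared, since the comparison of days treats the clone as a single shift over all days. With separate coefficients for each clone, genotype and day, 16 of the 55 genes were lower in clone 66 than in clone 48 at day 0, 47 at day 2 and 42 at day 6 (edgeR, adjusted p under 0.05), and 0 were higher on any day. In the same comparisons 11.1%, 15.5% and 12.8% of all tested genes were lower and 12.6%, 14.5% and 13.4% higher. The median log2 difference of the family was −0.43, −0.88 and −0.72, against 0.02, −0.01 and 0.00 for all tested genes. All 10 tested H3 genes were lower at days 2 and 6, and 15 of the 55 genes were lower on every day. *Hist2h2be*, *Hist2h2ab*, *Hist2h2ac*, *Hist2h4*, *Hist4h4* and *Hist1h4j* were lower on no day by the test. In these comparisons the same-numbered libraries of the 2 genotypes entered as separate libraries, although they deviated together. Standard errors and p-values can therefore be too small and the calls too many. The call numbers depended on single replicates. At day 0 they were 9, 4 and 30 without replicate 1, 2 or 3 of clone 48 and 3 without replicate 2 of clone 66, while 1 gene was higher without replicate 1 of clone 66. At day 2 the number was 29 without replicate 2 of clone 48. At day 6 it was 17 without replicate 1 of clone 48, and 20 or 23 without replicate 2 or 3 of clone 66.

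The summed level had medians of 5989 CPM in clone 48 and 5070 CPM in clone 66 at day 0, with overlapping ranges. At day 2 the medians were 6999 and 3534 CPM, and every library of clone 48 (4790 to 8502) lay above every library of clone 66 (3139 to 4740). At day 6 they were 4929 and 3113 CPM, with ranges of 3794 to 5982 and 2215 to 4174 CPM that overlapped. *Hist1h2af*, a canonical H2A gene, differed most on each day, by −1.19 (SE 0.215), −1.49 and −1.31 on the log2 scale. It was counted at 22.7 to 45.7 CPM in clone 48 and 10.1 to 16.6 CPM in clone 66 at day 0, and the clones did not overlap on any day. Among genes that passed the test, *Hist1h2ah* at day 0 (−0.88), *Hist1h3b* at day 2 (−1.29) and *Hist1h2ad* at day 6 (−1.24) came next. For *Hist1h3b* at day 2, libraries of clone 48 lay at 63.2 to 119 CPM and those of clone 66 at 28.6 to 54.9 CPM. *Hist1h2ah* and *Hist1h2ad* are counted at a low level (at least 11 and 12 counts per library), share 92.1% and 67.1% of their windows with other genes, and lost their call without several single replicates of either clone.

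The lists around the histones had smaller median differences, with no test between lists. The median difference between clones of the S phase list was −0.12, −0.05 and −0.07 on the 3 days, with 3, 7 and 2 of 23 genes lower and 1, 3 and 6 higher. Of the 11 replacement histones, 2, 3 and 1 were lower and 0, 0 and 1 higher. Of the 14 genes of histone transcription and mRNA processing, 4 were lower in clone 66 on each day and 0, 1 and 1 higher. Of all tested genes 11.1%, 15.5% and 12.8% were lower on the 3 days and 12.6%, 14.5% and 13.4% higher. Among other protein-coding genes with an exon length of up to 600 bases (54 tested), the median difference was −0.05, −0.20 and −0.17, against −0.48, −0.93 and −0.78 for the 28 histone genes in that range. Pool and clone coincide, and their parts were not tested.

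**Figure D4:**
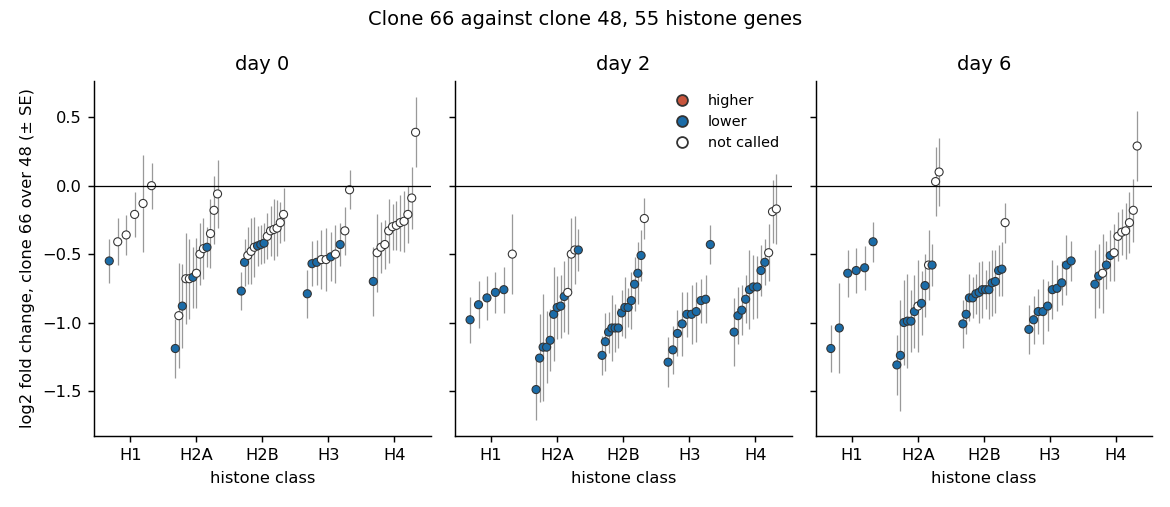
Log2 fold change of clone 66 over clone 48 (vertical axis, ± SE) for the 55 tested genes at each day, by histone class. Blue points are lower in clone 66 by the test and open points were not called. Blue points number 16, 47 and 42 on days 0, 2 and 6, and no point is red.

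Within each clone the timing differed in its values. In clone 48, 8 genes fell and 6 rose by day 2 (where 33.1% and 32.3% of all tested genes fell and rose), with a median of −0.02, and 27 fell and 2 rose by day 6 (28.6% and 27.8%), with a median of −0.53. In clone 66, 27 genes fell and 2 rose by day 2 (32.1% and 29.5%), with a median of −0.48, and 43 fell and 1 rose by day 6 (29.9% and 27.8%), with a median of −0.75. The difference between the clones in these changes, tested as an interaction, passed the threshold for 1 gene from day 0 to day 2 (where 6.84% of all tested genes passed), for the same gene from day 0 to day 6 (3.85%) and for 0 genes from day 2 to day 6 (6.18%). With the replicate number of each clone as a block, the numbers were 9, 1 and 1. At an unadjusted p under 0.05 without the block they were 12, 3 and 2, and with DESeq2 3, 1 and 0 genes were called. The shares of all tested genes with the block, at an unadjusted p and with DESeq2 are not given, so that these counts cannot be set against them. From day 0 to day 2 the number was 0 without replicate 2 of clone 48 or replicate 3 of clone 66 and 3 without replicate 3 of clone 48 or replicate 1 of clone 66. From day 0 to day 6 it was 0 without replicate 1 of clone 48 or replicate 3 of clone 66.

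The gene was *Hist1h1a*. At day 0 it lay at 128 to 229 CPM in clone 48 (median 185) and at 135 to 233 CPM in clone 66 (median 175). At day 2 the ranges were 313 to 483 CPM (median 439) and 181 to 254 CPM (median 199), and at day 6 they were 159 to 259 CPM (median 198) and 67.3 to 122 CPM (median 79.2). The clones overlapped at day 0 and did not overlap at days 2 and 6. The log2 change by day 2 was 1.20 in clone 48, which passed the test, and 0.22 in clone 66, which did not (adjusted p = 0.261, edgeR), a difference of −0.98 (SE 0.237, adjusted p = 0.00826, edgeR). It did not pass the test without replicate 2 of clone 48 (−0.86) or replicate 3 of clone 66 (−0.79).

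*Rxra*SA was compared with *Rxra*WT because serine 22 of RXRα is the site whose phosphorylation the study examined. None of the 55 genes was called on day 0, 2 or 6 or in the interaction of genotype with any pair of days by edgeR's quasi-likelihood test, where 0% of all tested genes were called, and 0 of the 55 had an unadjusted p under 0.05. DESeq2 also called 0. These fits take the clone as a covariate and do not use the pairing of same-numbered libraries. In no alternative, among them a replicate block within each day, was a member called. At most 2 members then had an unadjusted p under 0.05. The median log2 fold change of the family was 0.17 on day 0, −0.05 on day 2 and −0.02 on day 6, with a median standard error of 0.206 for a single gene on day 0. On day 0, 54 of the 55 estimates were above 0. The summed level was 4311 to 6098 CPM in *Rxra*WT and 4384 to 8971 CPM in *Rxra*SA libraries on that day, with medians of 5727 and 5603 CPM. *Hist1h1a* lay at 128 to 191 CPM in *Rxra*WT and 135 to 233 CPM in *Rxra*SA libraries, and *Hist2h2be* at 6.36 to 9.3 and 6.19 to 11.7 CPM.

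The members were also compared within each pair of same-numbered libraries. On day 0, *Rxra*SA was above *Rxra*WT for 49, 53 and 6 of the 55 genes in replicates 1, 2 and 3 of clone 48, and for 10, 11 and 55 of the 55 genes in those of clone 66. The medians of the 55 log2 ratios were 0.38, 0.62 and −0.12, and −0.10, −0.18 and 0.40. In 3 of the 6 pairs nearly the whole family was higher and in the other 3 most of it was lower, so that the genes are not independent of each other. On day 2 the counts were 40, 8 and 18 in clone 48 and 5, 46 and 41 in clone 66, so that some pairs were divided, such as replicate 3 of clone 48 with a median of −0.04. On day 6 the counts were 46, 10 and 1 in clone 48 and 10, 17 and 53 in clone 66. In replicate 3 of clone 66 on that day the summed level was 3186 CPM in *Rxra*SA and 2215 CPM in *Rxra*WT, the lowest of all 36 libraries, whereas in replicate 3 of clone 48 it was 3794 and 4941 CPM.

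S phase genes moved with the family in some pairs and not in others. On day 0 they were higher in *Rxra*SA in 15, 18 and 9 of 23 cases in clone 48 and in 10, 8 and 18 of 23 cases in clone 66, with medians of 0.24, 0.32, −0.06, −0.00, −0.07 and 0.12. In replicate 3 of clone 66 on day 6, where the histone median was 0.61, the S phase median was −0.00, and in replicate 3 of clone 48 on day 6 the values were −0.46 and −0.09. The part of these genes in the spread between libraries was not tested.

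**Figure D5:**
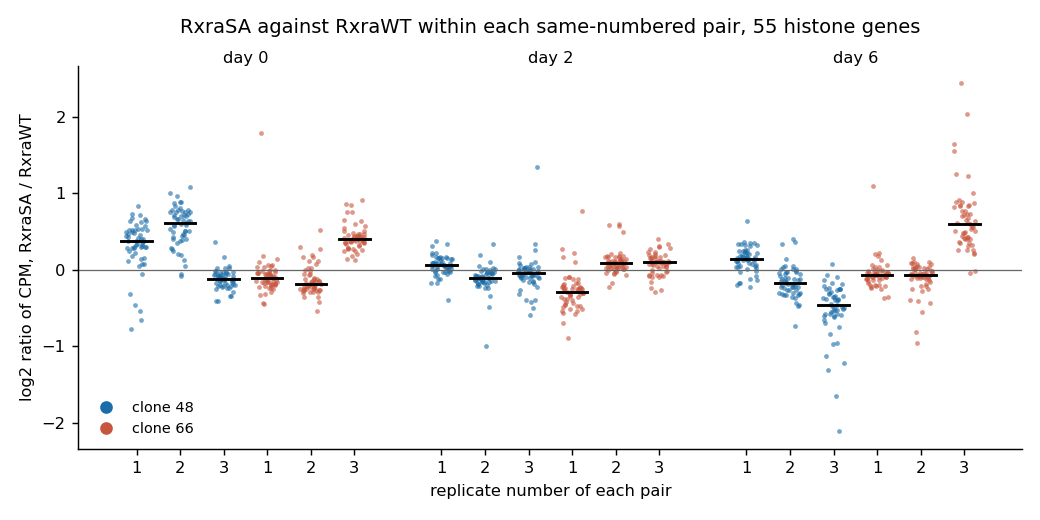
Log2 ratio of CPM, *Rxra*SA over *Rxra*WT (vertical axis), of the 55 tested genes in each pair of libraries that share clone, day and number (horizontal axis, blue clone 48 and red clone 66). Points are genes and black lines are medians. On day 0 the medians of the 6 pairs run from −0.18 to 0.62, with most genes of a pair on the same side of 0.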

How the data were processed

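The authors sequenced total RNA (TruSeq Stranded Total RNA Gold) from 36 libraries, aligned reads to GRCm38 with STAR 2.7.0d and counted read pairs per GENCODE M21 gene with featureCounts 1.6.2, without strand and without multi-mapping or multi-overlapping pairs. The deposited values are raw counts, and their number limits the precision of low genes.

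Genes were tested with edgeR 4.0.16 in R 4.3.3 (filterByExpr, TMM, quasi-likelihood test), with genotype and day as groups and clone as a covariate as in the study's methods. Clones were compared with separate coefficients for each clone, genotype and day. Benjamini-Hochberg adjustment ran over 16723 genes, and an adjusted p under 0.05 was a call. CPM were computed with python 3.11.15 (pandas 2.3.3, numpy 2.4.6, matplotlib 3.10.9). Of the 61 members, 6 were below the filter.

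The members and lists were chosen with earlier results of these data known. Values are given in full for the 2 members of each class with the highest CPM per kilobase, the largest called changes in each pair of days or between clones, and every member called against most of its class. The other values named were chosen after they were seen.

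Same-numbered libraries of the 2 genotypes deviated together (correlation over 9381 genes from 0.176 to 0.93, over 0.1 in 18 of 18 pairs), so that the numbers pair the genotypes within each clone and day. The main fit did not use this pairing. Comparisons of days, of clones and of clone by day average the 2 genotypes as separate libraries, so that their standard errors and p-values can be too small. A replicate block within each day was not fitted for them. Replicates of a group differed by more than sampling noise in each of 36 pairs. On simulated counts with 200 genes changed 2-fold the test recovered 118 for genotype on day 2 (3 false calls), 173 for day 2 against day 0 (8 false) and 85 for clone by day (6 false). Simulated libraries were drawn independently, so that these numbers do not cover libraries that deviate together, and smaller changes were not simulated. The alternatives were RLE size factors, library size alone, DESeq2 1.42.0, edgeR's newer quasi-likelihood test, no filter and a replicate block. Others were a replicate block within each day, for the genotype contrasts only, and fits without each replicate or without the library with the lowest total count.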

Additional observations from a re-analysis of the deposited data

Results flagged for a closer look

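The change of *Hist1h1a* over time differed between the clones in the test of the difference itself (edgeR's quasi-likelihood test, Benjamini-Hochberg adjusted over 16723 genes). From day 0 to day 2 the log2 change in clone 66 minus that in clone 48 was −0.98 (SE 0.237), and from day 0 to day 6 it was −1.18 (SE 0.238). The first lost its call without replicate 2 of clone 48 (−0.86) or replicate 3 of clone 66 (−0.79), and the second without replicate 1 of clone 48 or replicate 3 of clone 66 (−0.90). Clone and library pool coincide and cannot be told apart.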

How the results depend on the processing

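Among 24 named fold changes, 306 values under 14 alternatives gave 283 on the same side of the threshold, 23 that no longer passed and 0 reversals. With scaling by library size alone, 39 members fell from day 0 to day 2 and 1 rose from day 0 to day 6, 3 replacement histones fell and 1 gene of histone transcription and processing rose from day 0 to day 6, and 2 members differed between clones in the change to day 2. That scaling moved the median of all genes to −0.27, −0.22 and 0.08 (from −0.02, −0.03 and 0.01) for day 2 and day 6 against day 0 and day 6 against day 2, where the members' medians were −0.52, −0.79 and −0.32. The clone-by-day difference to day 2 was called for 3 members with DESeq2 and 2 without a filter.

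With a replicate block in place of the clone, 3 members rose and 31 fell by day 2, 2 and 52 by day 6, and 3 and 38 from day 2 to day 6. The clone-by-day difference was then called for 9 members to day 2 and 1 from day 2 to day 6, and no genotype call changed. Across days, same-numbered libraries correlated from −0.325 to 0.882, over 0.1 in 27 of 36 pairs. Since not every pair did, the number was not taken as a pairing of days, although it may be shared in part. The clone contrasts have no such fit.

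Leaving out 1 replicate at a time gave 3 to 6 members higher and 16 to 30 lower by day 2, 1 to 2 and 42 to 50 by day 6, and 1 to 2 and 18 to 35 from day 2 to day 6. In clone 66 it gave 0 to 1 higher and 3 to 30 lower on day 0, 29 to 51 lower on day 2 and 17 to 47 lower on day 6. The clone-by-day counts were 0 to 3 to day 2 and 0 to 1 to day 6, and 1 to 2 replacement histones fell. In the genotype contrasts and interactions 0 members were called in any setting of edgeR or DESeq2, with at most 2 at an unadjusted p under 0.05. Depth limits *Hist1h1t* and the H2A genes with few counts. The shares of all tested genes under these settings are not given, so that the counts show only how the calls of members depend on the setting.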
